A study of Mus musculus with 4 samples.

Results

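Day 3 embryoid bodies (EBs), clusters of differentiating mouse embryonic stem cells (mESCs), were profiled by RNA-seq, and the 10 genes described here encode secreted Wnt antagonists and targets of β-catenin that feed back on the pathway. The members are *Frzb*, *Sfrp1*, *Sfrp2*, *Sfrp5*, *Dkk1*, *Wif1*, *Notum*, *Axin2*, *Lef1* and *Nkd1*, which make up 10 of the 24347 gene rows. They were chosen by gene symbol and by role, with the difference between genotypes in view, because *Frzb* was already known to have one of the larger decreases. Differences between genotypes in these 10 genes are therefore a description, and the calls of the fit across all genes are counted for them only beside the share over all genes, not as evidence.

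The WT group held 2 samples of day 3 EBs from mESCs of strain 129/Ola, and the promoter KO group (KO below) held 2 samples of day 3 EBs from mESCs of the same strain in which the promoter of *Gm11549*, the gene of the micropeptide NEMEP, had been deleted with CRISPR/Cas9. Both groups were kept in medium with 15% serum and without LIF, on plates without gelatin, and received no other treatment. The methods name an ultra-low attachment dish for forming EBs. The promoter KO lines were grown from single sorted cells, and the labels do not say which clone, or how many clones, the samples WT 1, WT 2, KO 1 and KO 2 stand for. The study describes the samples of a genotype as independent biological replicates, without saying whether they differ by clone or by culture. The standard errors below are the moderated ones of limma, which combine the spread between these samples with that of other genes.

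*Gm11549* itself was listed at 0.750 FPKM (fragments per kilobase of transcript, corrected for library size) in WT 1, 0.522 in WT 2, 0 in KO 1 and 0.0659 in KO 2. Both KO samples thus lay below both WT samples, in the direction their labels give. The labels call the cells mesendoderm derived from embryonic stem cells. All 9 primitive streak markers reached 1 FPKM in both WT samples, while 5 of the 6 neuroectoderm markers, *Sox1* and *Pax6* among them, stayed below 1 FPKM in all 4 samples, with both KO samples above both WT samples in each of the 5. The sixth, *Nes*, was listed at 21.6 FPKM for WT 1, 24.5 for WT 2, 6.94 for KO 1 and 14.7 for KO 2. The depth, estimated from the FPKM that 1 fragment is worth, was about 24600000 fragments for WT 1, 21800000 for WT 2, 21600000 for KO 1 and 20100000 for KO 2.

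Wnt ligands bind Frizzled receptors and LRP coreceptors, which stops the destruction of β-catenin and lets it act with TCF/LEF factors on target genes. Secreted antagonists limit this signal outside the cell, either by binding the ligand (the SFRP family and WIF1) or by occupying the coreceptor (DKK1). Several direct targets restrain the pathway in turn, and in the early mouse embryo the signal is needed for the primitive streak, from which mesoderm and endoderm arise.

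Of the 10 genes, 9 had 1 FPKM or more in 2 or more samples and entered the fit across all genes, and *Wif1* did not. At an adjusted p under 0.05 in limma, 3 of the 9 (*Frzb*, *Dkk1* and *Nkd1*) were called lower in KO, where 1.89% of all 11941 tested genes were called lower. None of the 9 was called higher (0 of 9, and 0 at an unadjusted p under 0.05 in limma), where 1.68% of all tested genes were called higher. Both KO samples lay below both WT samples in the same 3 members, against 32.4% of all tested genes, and above both WT samples in 0, against 32.9%. Nothing is read from these counts, because the members were chosen with this contrast in view. Leaving out WT 2 or KO 1 left 0 of the 9 called, with 3 lower at an unadjusted p under 0.05 in limma in each case, but in both of these fits 0 of all 11941 genes were called (976 and 1043 lower at an unadjusted p under 0.05). Leaving out WT 1 left 1 called lower (*Frzb*), and leaving out KO 2 left 2 (*Frzb* and *Nkd1*). The call of *Nkd1* was also lost with a pseudocount of 0.1, with a filter at a mean of 5 FPKM, with centring on sample medians, with quantile normalization and in limma without its trend, where *Frzb* was lost too, and without a filter 0 members were called (3 lower at an unadjusted p under 0.05 in limma). In the fits without a sample, the lone sample of a genotype is assumed to vary like the other genotype.

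**Figure D1:**
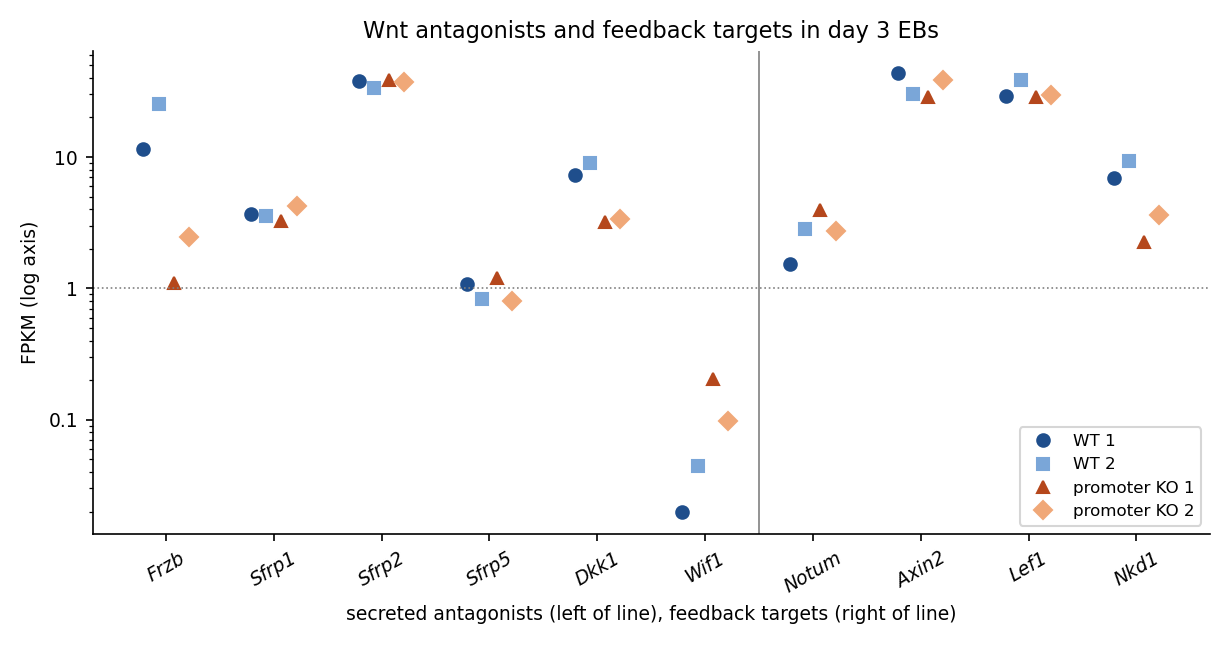
FPKM of the 10 genes in each of the 4 samples, on a log axis, with secreted antagonists left of the vertical line and feedback targets right of it. The dotted line marks 1 FPKM. The KO samples lie apart from and below the WT samples for *Frzb*, *Dkk1* and *Nkd1*, and *Wif1* is below 1 FPKM in every sample.

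*Frzb* encodes a secreted Frizzled-related protein that binds Wnt ligands. It was at 11.6 FPKM in WT 1, 25.2 in WT 2, 1.10 in KO 1 and 2.47 in KO 2. The genotypes did not overlap, and within each genotype sample 2 was higher than sample 1, 2.18 times in WT and 2.25 times in KO. The gap between the WT samples was 1.06 on the log2(FPKM + 1) scale, and 99.1% of the tested genes had a smaller one. At the estimated depths the KO values correspond to about 69.9 and 147 fragments, so they rest on more than a few fragments each. The mean FPKM in KO was 9.72% of that in WT, and KO minus WT came to −2.75 ± 0.39 as a difference of mean log2(FPKM + 1) (moderated standard error, n = 2 each), where the pooled SD between replicates of *Frzb* itself was 0.64. Only 4 of the 11941 tested genes had a more negative difference. These are bulk samples, in which fewer cells expressing a gene and less RNA per expressing cell cannot be told apart.

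*Frzb* spans 80411970 to 80447625 of chromosome 2, minus strand (GENCODE M21, GRCm38), and no other annotated gene overlaps its exons. The 5 tested genes whose pattern over the 4 samples was nearest to that of *Frzb*, by Euclidean distance of log2(FPKM + 1) centred on each gene's mean, were *Evx1*, *5730457N03Rik*, *Six2*, *Aplnr* and *Lhx1*, at distances from 0.41 to 0.56. *Evx1*, the nearest, was at 30.5 FPKM in WT 1, 59.6 in WT 2, 3.70 in KO 1 and 10.1 in KO 2. *Evx1* and *Lhx1* are also in the list of primitive streak markers described below, and both are among its genes called lower. With only 4 samples, this measure picks genes that share the genotype difference and the replicate order of *Frzb*, so neither is a separate finding.

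*Dkk1*, whose product occupies the LRP coreceptors, was at 7.34 FPKM in WT 1, 8.94 in WT 2, 3.17 in KO 1 and 3.35 in KO 2. Its samples lay close together within each genotype, and the genotypes did not overlap. The mean FPKM in KO was 40.1% of that in WT, a difference of −1.09 ± 0.15 on the log2(FPKM + 1) scale (moderated standard error, n = 2 each). In units of the pooled SD between replicates, which rests on 2 samples per genotype, the difference was 8.40 for *Dkk1*, 4.28 for *Frzb* and 3.83 for *Nkd1*. *Dkk1* was nevertheless not called in any of the 4 fits that left out a sample, where *Frzb* was called in 2, and in the other 2 of these fits 0 genes of the whole table were called in limma (976 and 1043 lower at an unadjusted p under 0.05). The sizes of the differences depended on the pseudocount. With a pseudocount of 0.1 they were −1.29 for *Dkk1*, −3.29 for *Frzb* and −1.46 for *Nkd1*, and for *Dkk1* the log2 ratio of mean FPKM was −1.32.

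The other members of the SFRP family did not show the pattern of *Frzb*. *Sfrp2* was the most abundant antagonist, at 37.7 FPKM in WT 1, 33.5 in WT 2, 38.3 in KO 1 and 37.4 in KO 2. Its samples overlapped between genotypes, with a difference of 0.09 ± 0.10 on the log2(FPKM + 1) scale (moderated standard error, n = 2 each). *Sfrp1* was far less abundant, with 3.67 and 3.53 FPKM in WT against 3.24 and 4.23 in KO. The KO samples lay on either side of both WT samples, and the difference was 0.03 ± 0.16. *Sfrp5* stood at the filter, with 1.08 and 0.832 FPKM in WT against 1.20 and 0.795 in KO. Its values correspond to about 27.2 to 45.0 fragments, the genotypes overlapped, and the difference was 0.03 ± 0.18. Over the settings tried, the differences of *Sfrp1* ranged from −0.12 to 0.18 and those of *Sfrp5* from −0.12 to 0.17, so that neither had a fixed direction.

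*Wif1*, which encodes another secreted protein that binds Wnt ligands, was listed at 0.0198 FPKM in WT 1, 0.0446 in WT 2, 0.203 in KO 1 and 0.0975 in KO 2. Both KO samples were above both WT samples, but at the estimated depths the 4 values correspond to only about 1.02, 2.03, 9.20 and 4.11 fragments. The gene was not tested, and its level is near the limit of what this depth can show.

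Summed over the 6 secreted antagonists, the FPKM was 61.4 in WT 1, 72.0 in WT 2, 47.3 in KO 1 and 48.3 in KO 2. *Sfrp2* made up 61.4% and 46.5% of this sum in WT, against 81.1% and 77.3% in KO. *Frzb* made up 18.8% and 35.0% in WT and 2.32% and 5.12% in KO. *Sfrp2* took a larger share in both KO samples than in either WT sample, although its own FPKM overlapped between genotypes. The set was chosen with the decrease of *Frzb* in view, so this shift in shares is not a separate finding. The antagonists other than *Sfrp2* summed to 23.7 and 38.5 FPKM in WT against 8.91 and 10.9 in KO. *Notum*, whose product is also secreted, was grouped with the feedback targets and is not in these sums.

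The feedback targets act at different levels of the pathway. *Nkd1*, whose product binds Dishevelled inside the cell, was at 6.91 FPKM in WT 1, 9.34 in WT 2, 2.24 in KO 1 and 3.62 in KO 2. The genotypes did not overlap, and the higher KO sample was well below the lower WT sample. The mean in KO was 36.1% of that in WT, a difference of −1.22 ± 0.22 on the log2(FPKM + 1) scale (moderated standard error, n = 2 each).

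*Axin2* is a scaffold of the complex that destroys β-catenin and a widely used readout of the pathway. It had the highest mean of the members in WT, although *Lef1* (38.6 FPKM) and *Sfrp2* (33.5 FPKM) were above it in WT 2. The values of *Axin2* were 43.8 FPKM in WT 1, 30.1 in WT 2, 28.5 in KO 1 and 38.5 in KO 2. Here the samples of a genotype differed more than the genotypes did. Promoter KO 2 lay between the WT samples, and the difference was −0.13 ± 0.21. It had the opposite sign in 2 of the 10 settings tried, with a range from −0.39 to 0.14. *Lef1*, one of the TCF/LEF factors, was at 29.1 FPKM in WT 1, 38.6 in WT 2, 28.5 in KO 1 and 29.8 in KO 2. WT 1 and the KO samples were close together and WT 2 stood above them, with a difference of −0.20 ± 0.14. That difference ranged from −0.394 without WT 1 to −0.0015 without WT 2.

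*Notum* encodes a secreted enzyme that removes the lipid from Wnt ligands, and was the member with the highest positive difference among the 9 tested, 0.46 ± 0.25. Its values were 1.54 FPKM in WT 1, 2.81 in WT 2, 3.92 in KO 1 and 2.72 in KO 2. WT 2 and KO 2 were nearly equal, so the genotypes overlapped. Over the 10 settings tried, the difference of *Notum* ranged from 0.17 to 0.75. Without WT 1 it was 0.168, below that of *Sfrp2* (0.172), so its rank depended on that sample.

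Feedback targets measured in the same samples therefore differed in how far apart the genotypes lay. Per 100 FPKM of *Axin2* there were 15.8 and 31.1 FPKM of *Nkd1* in WT and 7.85 and 9.39 in KO. The summed FPKM of the 4 feedback targets was 81.4 in WT 1, 80.8 in WT 2, 63.2 in KO 1 and 74.6 in KO 2, a sum made up mostly of *Axin2* and *Lef1*.

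**Figure D2:**
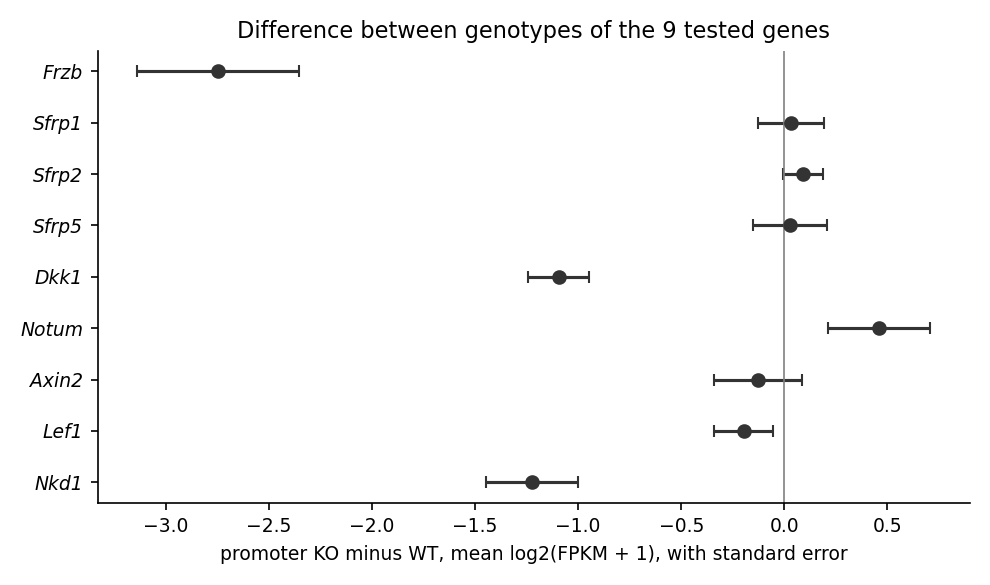
Difference in mean log2(FPKM + 1), KO minus WT, for the 9 genes that entered the fit. Points are the differences and bars extend 1 moderated standard error to either side (limma, n = 2 each). The differences run from −2.75 for *Frzb* to 0.46 for *Notum*.

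In WT EBs the order of the mean levels in FPKM was *Axin2* (36.9), *Sfrp2* (35.6), *Lef1* (33.9), *Frzb* (18.4), *Dkk1* (8.14), *Nkd1* (8.12), *Sfrp1* (3.60), *Notum* (2.17), *Sfrp5* (0.954) and *Wif1* (0.0322). The samples of *Axin2* and *Sfrp2*, of *Sfrp2* and *Lef1*, and of *Dkk1* and *Nkd1* overlapped, and those of the other neighbours in this order did not. In KO EBs the order began with *Sfrp2* (37.9), *Axin2* (33.5) and *Lef1* (29.1), followed at a distance by *Sfrp1* (3.73), *Notum* (3.32), *Dkk1* (3.26), *Nkd1* (2.93), *Frzb* (1.78), *Sfrp5* (0.998) and *Wif1* (0.150). *Frzb* was thus 4th in WT and 8th in KO. In KO all neighbours overlapped except *Lef1* and *Sfrp1*, and *Sfrp5* and *Wif1*.

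**Figure D3:**
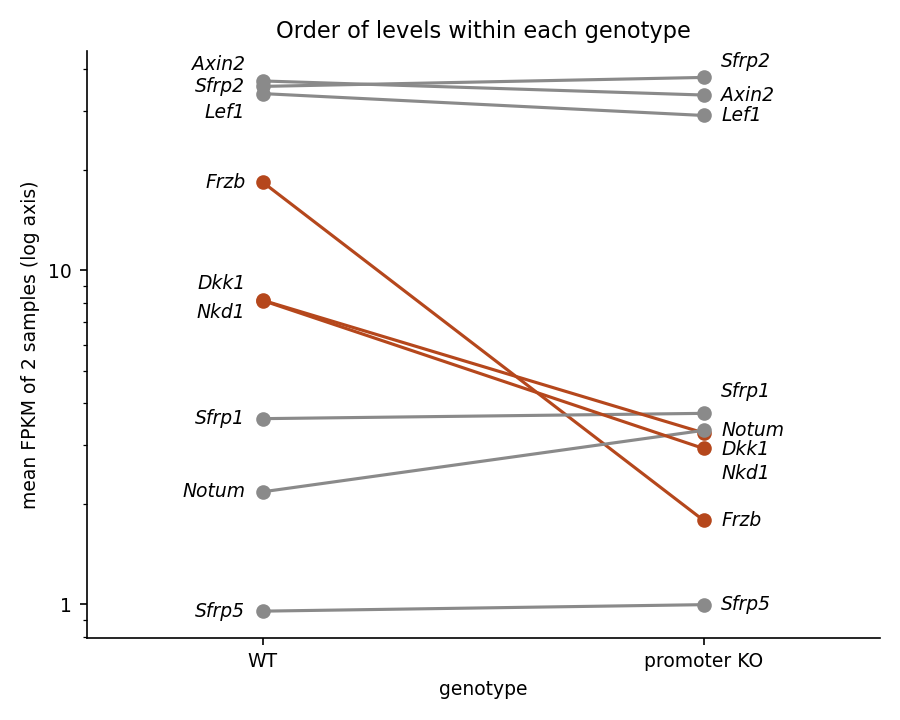
Mean FPKM of the 9 tested genes in WT and KO EBs (n = 2 each), on a log axis, with a line joining the means of each gene. Coloured lines are the genes in which both KO samples lay below both WT samples. *Frzb* crosses *Dkk1*, *Nkd1*, *Sfrp1* and *Notum*, and the 3 most abundant genes in KO, *Sfrp2*, *Axin2* and *Lef1*, were also the 3 most abundant in WT.

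The members lie on chromosomes 2, 3, 8, 10, 11 and 19, and none is next to *Gm11549*, although *Sfrp2* (83766321 to 83774316) and *Lef1* (131110471 to 131224356) share chromosome 3 with it (36515057 to 36521813). Annotated genes on the opposite strand overlap exons of *Sfrp2*, *Notum*, *Axin2* and *Lef1*. The strand setting of the authors' counting is not given in the sources used here, so fragments of these 4 genes and of their antisense partners cannot be told apart and their values are uncertain to that extent. *Frzb*, *Sfrp1*, *Sfrp5*, *Dkk1*, *Wif1* and *Nkd1* have no such partner and no near-identical annotated copy.

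Promoter sequences were available for 8 of the 10 genes in RefSeq (GRCm38.p6), with 11 annotated starts, and *Sfrp1* and *Notum* had no entry. The window from 250 bases before to 50 bases after each start was searched on both strands for letters bound by TCF/LEF factors (CTTTGAA or CTTTGAT or CTTTGTA or CTTTGTT), by FOXH1 (AATCCACA or AATACACA) and by SMAD proteins (CAGAC). FOXH1 and SMAD proteins act in Nodal signalling, which accompanies Wnt signalling in the streak. Of all 32851 promoters in the table, 16.9% held a TCF/LEF match, 1.82% a FOXH1 match and 49.6% a SMAD match. TCF/LEF letters were found for 2 of the 8 members, *Dkk1* and *Lef1*, FOXH1 letters for 0 and SMAD letters for 5 (*Sfrp2*, *Sfrp5*, *Dkk1*, *Axin2* and *Lef1*). Counted by start, as the shares of all promoters are, 2 of the 11 starts held TCF/LEF letters, 0 FOXH1 letters and 7 SMAD letters. *Frzb*, *Nkd1* and *Wif1* held none of these letters, and for *Frzb* 229 of the 250 bases before the RefSeq start lie in an exon of *Frzb* in GENCODE M21. A match is a description of the sequence, and its absence says only that these letters are not in this window.

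*Dkk1* had a pair of TCF/LEF matches, CTTTGAA with its first base at −117 and CTTTGTT with its first base at −98 from the start, both on the strand of the gene. The stretch that holds both (chr19:30549588-30549613, minus strand) is shown because *Dkk1* is the only member with separated genotypes that has such a match. Capitals mark the TCF/LEF letters. GENCODE M21 places the start of the gene further upstream (*Dkk1* ends at 30549665 on the minus strand), so the stretch lies before the RefSeq start and within the first GENCODE exon.
Dkk1: CTTTGAAatcccatcccggCTTTGTT

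For comparison, the 250 bases before a start are shown for 3 feedback targets, *Nkd1*, in which the genotypes were apart, and *Axin2* and *Lef1*, in which they overlapped. Capitals mark TCF/LEF or SMAD letters on either strand. The *Nkd1* window (chr8:88527383-88527632, plus strand) has none, and its RefSeq start lies inside the gene as GENCODE M21 draws it (88521354 to 88594884). The *Axin2* window (chr11:108920099-108920348, plus strand) has the SMAD letters, their first base at −117 from the start. *Lef1* has 4 RefSeq starts, and the one shown (chr3:131156044-131156293, plus strand) is the only one with a TCF/LEF match, CTTTGTA read on the opposite strand, between a pair of SMAD matches. It too lies inside the gene in GENCODE M21, which begins at 131110471. The matches do not overlap each other.
Nkd1: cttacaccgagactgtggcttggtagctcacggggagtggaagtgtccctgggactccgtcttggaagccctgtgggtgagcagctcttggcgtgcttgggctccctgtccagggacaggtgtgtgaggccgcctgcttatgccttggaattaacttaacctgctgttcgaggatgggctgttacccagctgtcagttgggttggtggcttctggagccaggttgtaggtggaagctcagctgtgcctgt
Axin2: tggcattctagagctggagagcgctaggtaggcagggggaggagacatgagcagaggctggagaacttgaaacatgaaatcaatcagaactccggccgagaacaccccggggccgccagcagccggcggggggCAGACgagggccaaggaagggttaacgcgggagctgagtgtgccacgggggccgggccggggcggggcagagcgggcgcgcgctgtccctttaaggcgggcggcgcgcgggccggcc
Lef1: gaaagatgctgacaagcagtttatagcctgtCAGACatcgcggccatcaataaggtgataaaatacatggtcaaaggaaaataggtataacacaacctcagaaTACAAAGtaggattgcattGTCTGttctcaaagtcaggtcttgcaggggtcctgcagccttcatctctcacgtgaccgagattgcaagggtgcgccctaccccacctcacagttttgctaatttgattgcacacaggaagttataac

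Of 104 other genes of the Wnt pathway, listed by role, 76 passed the filter. Both KO samples lay below both WT samples in 40 of the 76 and above them in 14, against 32.4% and 32.9% of all tested genes. Of all tested genes, 1.89% were called lower and 1.68% higher. The lists were chosen with earlier results of these data known, so nothing is read from their counts. In limma 3 of the 76 were called lower in KO (*Cer1*, *Igfbp4* and *Sp5*) and 0 were called higher (adjusted over all genes, threshold 0.05), with 21 lower and 9 higher at an unadjusted p under 0.05, where 1863 of all 11941 tested genes were lower and 1786 higher at that p. Their median difference was −0.17 on the log2(FPKM + 1) scale, where that of all tested genes was 0.00, and that of the 9 tested members was −0.13. Without WT 2, and without KO 1, 0 of the 76 were called lower, with 14 and 12 lower at an unadjusted p under 0.05 in limma. Without KO 2, 5 were called lower and 2 higher.

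Among 12 tested extracellular genes, 2 were called lower and 0 higher in limma, with 4 lower and 0 higher at an unadjusted p under 0.05. *Cer1*, which encodes a secreted antagonist of Nodal and BMP, fell from 36.6 and 26.1 FPKM in the WT samples to 7.42 and 8.93 FPKM in the KO samples, a log2 fold change of −1.80 (adjusted p = 0.0233, limma). *Igfbp4*, whose product binds insulin-like growth factors and can also bind Frizzled and LRP, fell from 26.0 and 52.5 to 10.8 and 10.7 FPKM (log2 fold change −1.69, adjusted p = 0.0472, limma). Both genes had non-overlapping genotypes, as 32.4% of all tested genes had with both KO samples lower. In *Cer1* WT 1 was the higher WT sample, and in *Frzb* WT 2 was. Over the settings that pair no samples, the adjusted p of *Cer1* ranged from 0.0233 to 0.133 and that of *Igfbp4* from 0.0233 to 0.192. *Rspo1*, a secreted activator that acts through LGR receptors, had 10.9 and 8.56 FPKM in WT against 7.02 and 10.3 in KO, which overlapped. *Rspo3*, of the same family and chosen here after its values were seen, was at 6.42 and 15.7 FPKM in WT against 1.97 and 3.10 in KO, without overlap. Its log2 fold change was −1.67 (adjusted p = 0.0648, limma), and it was called lower without WT 1.

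Among 14 tested targets of the pathway, 1 was called lower and 0 higher in limma, with 6 lower and 3 higher at an unadjusted p under 0.05. *Sp5*, a zinc finger factor, fell from 193 and 222 FPKM in the WT samples to 32.7 and 75.7 FPKM in the KO samples, a log2 fold change of −2.03 (adjusted p = 0.0467, limma, and 0.0131 to 0.227 over the settings that pair no samples). Relative to *Axin2*, another target, *Sp5* stood at 4.41 and 7.37 FPKM per FPKM in WT and 1.15 and 1.97 in KO. *T*, the most abundant of the 14, did not pass (adjusted p = 0.0509, limma), at 306 and 448 FPKM in WT against 50.5 and 127 in KO. *Tcf7*, a TCF/LEF factor like *Lef1*, was at 55.2 and 58.5 FPKM in WT against 42.3 and 46.0 in KO, with no overlap, a log2 fold change of −0.36 (adjusted p = 0.0713, limma).

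Of the ligands, 7 of 19 passed the filter and 0 were called in either direction in limma, with 3 lower and 0 higher at an unadjusted p under 0.05. *Wnt3*, which the embryo needs to form the streak, was at 17.9 and 24.7 FPKM in WT against 6.32 and 10.3 in KO, a log2 fold change of −1.28 (adjusted p = 0.0511, limma). Its samples did not overlap. *Wnt8a*, the most abundant ligand, was at 47.6 and 36.5 FPKM in WT against 36.9 and 33.8 in KO, and *Wnt5b* at 10.3 and 15.3 FPKM in WT against 7.48 and 7.21 in KO. Without KO 2, *T* and *Wnt3* passed (adjusted p = 0.0307 and 0.0427, limma), and in the other fits that left out a sample they did not.

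Of the receptors and coreceptors, 17 of 18 passed the filter and 0 were called, with 5 lower and 3 higher at an unadjusted p under 0.05 in limma. *Ptk7*, the most abundant, was at 126 and 132 FPKM in WT against 93.4 and 160 in KO, so that the KO samples lay on either side of the WT samples. *Fzd7* was at 49.7 and 49.2 FPKM in WT against 61.4 and 62.2 in KO, and *Lrp5*, a coreceptor of the kind that DKK1 occupies, at 50.3 and 42.2 FPKM in WT against 41.3 and 47.0 in KO. *Fzd7* had non-overlapping genotypes with the KO samples higher, a log2 fold change of 0.32 (adjusted p = 0.0712, limma). Of the intracellular genes, 26 of 28 passed the filter and 0 were called, with 3 lower and 3 higher at an unadjusted p under 0.05 in limma. *Ctnnb1*, which encodes β-catenin, was at 282 and 263 FPKM in WT against 305 and 297 in KO (log2 fold change 0.14, adjusted p = 0.251, limma). *Csnk1a1*, a kinase of β-catenin, and *Dvl2*, one of the Dishevelled proteins that NKD1 binds, had log2 fold changes of −0.17 and −0.11.

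**Figure D4:**
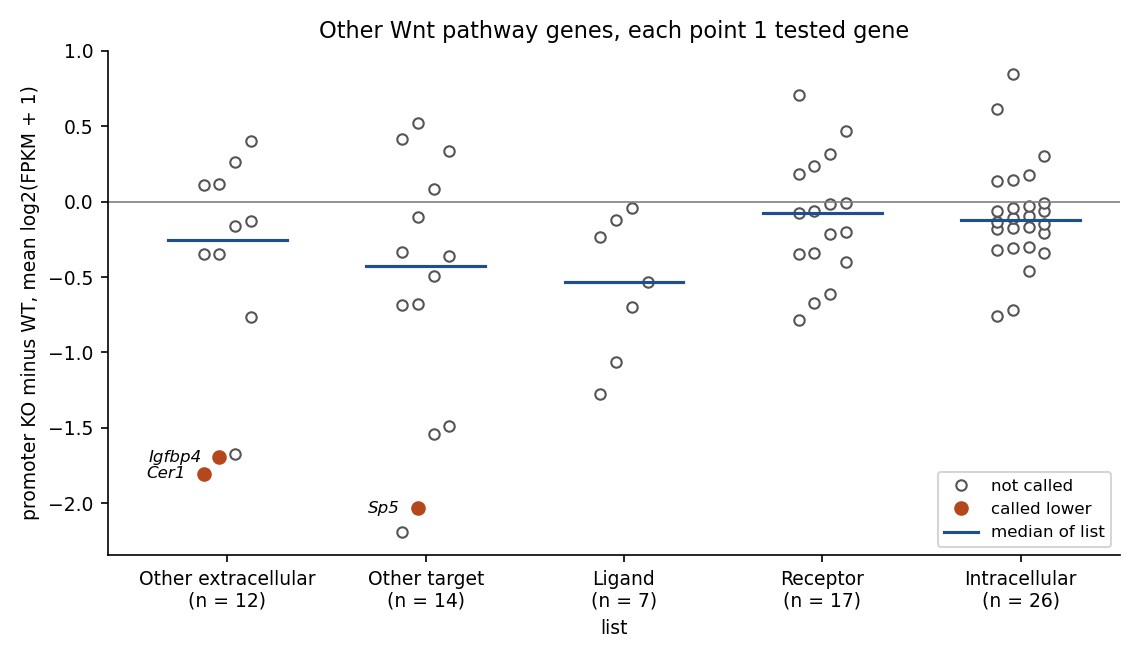
Difference in mean log2(FPKM + 1), KO minus WT, for the 76 tested genes of 5 lists of other Wnt pathway genes, each point 1 gene. Filled points are the 3 genes called lower in limma (*Cer1*, *Igfbp4* and *Sp5*), open points were not called, and horizontal lines are the medians of the lists. The medians of the 5 lists lie below 0, from −0.53 for ligands to −0.08 for receptors.

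Markers of several cell types differed between the same samples in which *Frzb*, *Dkk1* and *Nkd1* differed. The marker lists were chosen with earlier results of these data known. Beside the counts below, 1.89% of all tested genes were called lower and 1.68% higher in limma. Of the 9 primitive streak markers, 9 were tested and 6 were called lower in limma, with a median difference of −2.33, and their summed FPKM was 898 in WT 1, 1183 in WT 2, 177 in KO 1 and 355 in KO 2, *T* being the most abundant. The order of the 4 samples in this sum, with WT 2 highest and KO 1 lowest, was that of *Frzb*, *Dkk1* and *Nkd1*. Few orders are possible with 2 samples per genotype once KO lies below WT, so this is not a separate finding. For definitive endoderm 6 of 6 were tested and 3 were called lower (median −0.89), with *Foxa2* the most abundant. The summed FPKM was 142, 103, 40.5 and 63.6 (WT 1, WT 2, KO 1 and KO 2, as in the sums below), so here WT 1 was highest. *T* and *Tbx6* are in the streak list and among the pathway targets, *Cer1* is among the extracellular genes and in both endoderm lists, and *Hhex* is in both endoderm lists, so these counts share genes.

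Several markers of extraembryonic endoderm were higher in KO. For visceral endoderm 9 of 10 were tested and 4 were called higher and 0 lower in limma, with 1 lower and 6 higher at an unadjusted p under 0.05, a median of 1.14 and summed FPKM of 16.3, 28.1, 43.9 and 53.7. The one lower was *Rbp4*, at 3.66 and 4.44 FPKM in WT against 2.45 and 2.80 in KO, and the samples of *Gata4*, the most abundant, overlapped between genotypes. For parietal endoderm 7 of 8 were tested and 5 were called higher (median 1.83), with summed FPKM of 101, 124, 254 and 319, *Sparc* being the most abundant, and *Thbd* stayed below 1 FPKM in every sample. For pluripotency 8 of 8 were tested and 1 was called higher and 0 lower in limma (1 lower and 5 higher at an unadjusted p under 0.05, median 0.84), with summed FPKM of 2754, 2530, 4572 and 3584, *Pou5f1* being the most abundant. The one lower was *Nanog*, at 139.9 and 113 FPKM in WT against 94.1 and 98.7 in KO. For the epiblast 3 of 3 were tested and 1 was called higher (median 0.28), with summed FPKM of 560, 403, 575 and 615, and *Dnmt3b* was the most abundant.

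In the remaining lists several markers did not reach the filter. For anterior visceral endoderm and axial mesendoderm 5 of 8 were tested and 2 were called lower, *Hhex* and *Cer1*, and 0 higher (3 lower and 1 higher at an unadjusted p under 0.05 in limma, median −0.74). The one higher was *Lefty1*, at 27.8 and 51.1 FPKM in WT against 69.1 and 62.0 in KO. The list summed to 161, 160, 155 and 150 FPKM, *Otx2* being the most abundant (log2 fold change 0.01) and *Shh* and *Noto* near 0. For neuroectoderm 1 of 6 was tested and 0 were called (1 lower and 0 higher at an unadjusted p under 0.05 in limma), with summed FPKM of 22.2, 25.0, 9.25 and 16.4, nearly all from *Nes*. For fibroblasts, which are used as feeder cells, 2 of 7 were tested and 0 were called in limma (1 lower and 0 higher at an unadjusted p under 0.05), with summed FPKM of 12.8, 12.3, 17.3 and 10.9, mostly from *Thy1*, and *Postn* and *Lum* were listed at 0 in every sample. Without WT 2, 0 genes of the whole table were called lower and 0 higher in limma (976 and 899 at an unadjusted p under 0.05), and without KO 1 likewise 0 and 0 (1043 and 966), so none of the marker calls held in those fits. Without a filter, 0 markers of any list were called in limma. In that fit 8 primitive streak markers were lower and 7 parietal endoderm markers higher at an unadjusted p under 0.05 in limma. Without its trend limma called 1 primitive streak and 1 definitive endoderm marker lower, and 3 visceral and 3 parietal endoderm markers higher. Definitive endoderm also had 1 marker called lower with a filter at a mean of 5 FPKM, with centring and with quantile normalization. The part of these cell types in the differences of *Frzb*, *Dkk1* and *Nkd1* was not tested.

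**Figure D5:**
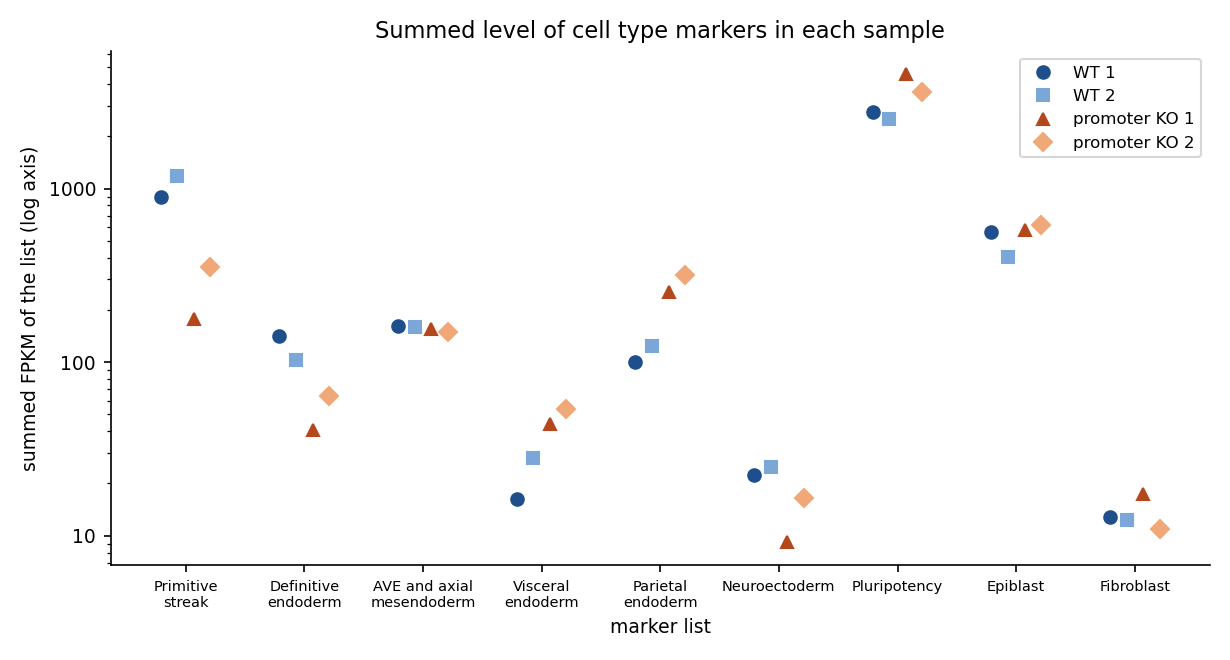
Summed FPKM of 9 marker lists in each of the 4 samples, on a log axis. AVE stands for anterior visceral endoderm. The KO samples lie below the WT samples for primitive streak and definitive endoderm (40.5 and 63.6 against 142 and 103 FPKM) and above them for visceral and parietal endoderm (254 and 319 against 101 and 124 FPKM for parietal endoderm).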

How the data were processed

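RNA-seq was analysed from the FPKM values that the authors deposited, in 1 file per sample with replicates kept apart. The submitters' processing notes name HISAT2 2.1.0, Cufflinks, Cuffnorm and the mm10 genome, whereas the methods describe TopHat, Cufflinks and Cuffdiff and call the unit RPKM, so the aligner is uncertain. Reads were not used. The 11941 genes that reached 1 FPKM in 2 or more samples were tested on log2(FPKM + 1) with limma 3.58.1 in R 4.3.3 (lmFit, eBayes with an intensity trend), promoter KO against WT, with Benjamini-Hochberg adjustment over all genes. The pseudocount makes differences of low genes smaller than their FPKM ratio. The procedure was tested on simulated data. Depth was estimated at a fragment length of 200 bases and limits values of a few fragments. Named genes were the members, *Gm11549*, in each pathway list the genes called (at most 6 per direction) and the 3 most abundant, and the 5 genes nearest to *Frzb*. *Rspo3* and single genes of the marker lists, such as *Nes* and *Nanog*, were named outside this rule. Members and lists were chosen with earlier results of these data known. Near-identical copies had at least 95% identity over at least 200 bases (BLAST 2.17.0). Tables and figures were made with Python 3.11.15, numpy 2.4.6, pandas 2.3.3 and matplotlib 3.10.9. The alternatives were other pseudocounts, filters, variance models and scalings, each sample left out, and a block. The protein comparison was not run.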

Additional observations from a re-analysis of the deposited data

How the results depend on the processing

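The counts depended on the settings: 226 genes lower and 201 higher, 3 other Wnt pathway genes lower and 0 higher (9 higher at an unadjusted p under 0.05 in limma), and 3 members lower. Without a filter on low values each of these counts was 0 in limma (at an unadjusted p under 0.05, 1982, 2077, 22, 12 and 3). A filter at a mean of 5 FPKM gave 108 genes lower, 95 higher and 1 other pathway gene lower. Without its trend limma gave 27, 55 and 1, with 1 member lower. Centring on sample medians gave 126 genes lower, and it and quantile normalization each gave 1 other pathway gene lower. Leaving out each sample gave 0 to 248 genes lower and 0 to 238 higher, 0 to 5 other pathway genes lower and 0 to 2 higher, and 0 to 2 members lower. With a replicate block 667 genes were lower and 535 higher, and 10 other pathway genes lower and 3 higher. The labels name no pairing, and the deviations of same-numbered samples correlated at 0.0348 across genes. That value covers all 11941 tested genes and cannot show whether some of them vary together by replicate number.

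The difference of *Frzb* ranged from −3.36 to −2.22 over its 10 settings, that of *Nkd1* from −1.48 to −0.97 and that of *Dkk1* from −1.32 to −0.97. That of *Dkk1* was −1.29 with a pseudocount of 0.1 and −1.32 as a ratio of mean FPKM. The calls of *Cer1*, *Igfbp4* and *Sp5* were lost in 19 of 33 recomputed values (3, 8 and 8), from 11 alternatives per gene. The other 12 pathway genes named by rule gained 4 calls, all in *T* and *Wnt3*, and *Rspo3*, named after its values were seen, gained 2. Fits without a filter tested more genes and fits without a sample had fewer samples. Whether this made the calls change was not tested, and neither was the cause under the other settings. Depth limits *Wif1* and *Sfrp5*.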
